A study of Homo sapiens with 4 samples.

Results

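The neuroendocrine lineage was followed through 9 genes: the markers ENO2, CHGA, CHGB, SYP, NCAM1 and SCG2 and the regulators INSM1, PEG10 and REST. They were chosen by symbol, each was read by 1 probe set that names no other gene, and they are 9 of 18417 genes measured on 4 Affymetrix whole-transcript arrays of human prostate cancer cells. LNCaP is an androgen-responsive line, and its cells had spent 24 h under hormone-free conditions with 2.5% charcoal-treated serum and no phenol red. LTAD is a subline of it obtained by long androgen deprivation and kept without hormone at 10% treated serum. Of the LTAD arrays, 1 came from untransfected cells, 1 from cells given a control siRNA (siControl) and 1 from cells given an siRNA against PSF (siPSF), the RNA-binding protein encoded by SFPQ. The siRNA sequences, dose and time after transfection, and whether LTAD is 1 clone, are not given in the sources used here. Each group held 1 array, so nothing could be tested over replicates, there is no p-value and no error, and every difference below is between 2 single arrays. Line and culture medium cannot be told apart in LTAD against LNCaP, nor can transfection and array in siControl LTAD against LTAD. In bulk RNA, fewer cells of a type and less RNA per cell cannot be told apart.

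Neuroendocrine cells are rare secretory cells of the prostate epithelium, and prostate tumours under androgen deprivation can take on their features. Their dense-core granules hold the granins chromogranin A, chromogranin B and secretogranin II, and synaptophysin sits in the membrane of their small vesicles. REST is a zinc-finger repressor that keeps neuronal and secretory genes silent outside neurons and endocrine cells, working through co-repressors such as CoREST, SIN3 and histone deacetylases. INSM1 is a transcription factor of neuroendocrine differentiation, and PEG10 is an imprinted, retrotransposon-derived gene described in neuroendocrine prostate cancer.

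Values are log2 probe set levels. The deposited columns lay on different scales, with medians over all probe sets from 5.98 for siControl LTAD to 7.20 for untransfected LTAD, so levels and differences are given after quantile normalization of the 4 arrays unless called deposited. A gene was kept if its deposited level reached 7.24, the median of all deposited gene values, in at least 1 array, which kept 11049 genes. The filter level is a median and no background was measured, so whether a level under 7.24 lies above background is not known. A difference that rests on such a level is given without a fold. Of the 9 members 4 were kept (ENO2, PEG10, REST and INSM1), and only ENO2 and REST reached 7.24 in all 4 arrays. The siRNA target SFPQ read 9.87 in siPSF LTAD and 11.23 in siControl LTAD, a 2.58-fold lower level.

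The 3 classical tissue markers of this lineage, neuron-specific enolase (ENO2), chromogranin A (CHGA) and synaptophysin (SYP), are shown by the sequence around their start, because ENO2 was read well above the filter level and the other two were not. The windows run from 250 bases before to 50 bases from the start in RefSeq, build GRCh38.p14, 5′ to 3′ on the gene's strand. They lie at chr12:6914330-6914629 (plus strand) for ENO2, chr14:92922900-92923199 (plus strand) for CHGA and chrX:49200144-49200443 (minus strand) for SYP. Capitals mark ACGTG, the core of a hypoxia response element, in ENO2 and SYP, and TGACGTCA, the cyclic AMP response element, in CHGA.
ENO2: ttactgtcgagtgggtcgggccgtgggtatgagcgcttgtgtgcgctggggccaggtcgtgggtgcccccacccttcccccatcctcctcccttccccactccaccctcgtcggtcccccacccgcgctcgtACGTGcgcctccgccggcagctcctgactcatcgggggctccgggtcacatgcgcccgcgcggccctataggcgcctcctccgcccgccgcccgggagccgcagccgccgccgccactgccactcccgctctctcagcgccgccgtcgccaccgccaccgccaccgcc
CHGA: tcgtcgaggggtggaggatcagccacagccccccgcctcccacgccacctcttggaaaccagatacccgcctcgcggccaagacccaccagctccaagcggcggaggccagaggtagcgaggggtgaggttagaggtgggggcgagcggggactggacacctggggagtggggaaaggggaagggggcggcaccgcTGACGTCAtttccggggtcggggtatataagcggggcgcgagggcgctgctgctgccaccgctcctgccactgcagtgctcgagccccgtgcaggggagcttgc
SYP: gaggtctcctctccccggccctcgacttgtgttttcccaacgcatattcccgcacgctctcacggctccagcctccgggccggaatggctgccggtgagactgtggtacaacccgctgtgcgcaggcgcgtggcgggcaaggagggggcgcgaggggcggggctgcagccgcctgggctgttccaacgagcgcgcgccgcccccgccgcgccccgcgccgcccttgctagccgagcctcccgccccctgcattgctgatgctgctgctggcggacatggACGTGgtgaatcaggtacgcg
The GC content of the windows was 75.0% for ENO2, 69.3% for CHGA and 71.3% for SYP. The CHGA window held TGACGTCA from position -54 to -47 before the start, and 1.85% of 35116 RefSeq windows of this length hold these letters on either strand. ACGTG stood once in ENO2, from -118 to -114, and once in SYP, from 30 to 34 after the start, and 21.4% of all windows hold it. TGACGTCA does not contain ACGTG. TTCAGCACC, the left part of the RE1 site that REST binds, was searched on both strands in the windows of ENO2, CHGA, SYP and REST, the 4 members with an entry. These letters were in none of them and in 0.376% of all windows.

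ENO2 encodes gamma enolase, the neuronal form of a glycolytic enzyme. It read 9.01 in LNCaP, 10.29 in LTAD, 9.67 in siControl LTAD and 10.52 in siPSF LTAD. The level was lowest in LNCaP, and all 3 LTAD arrays lay above it. On the deposited scale the ENO2 levels were 9.34, 10.75, 9.28 and 10.14 in the same order of arrays, so that siControl LTAD minus LNCaP was then -0.07, against 0.66 after quantile normalization. Without replicates it is not known which of these neighbouring levels differ beyond array error.

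**Figure D1:**
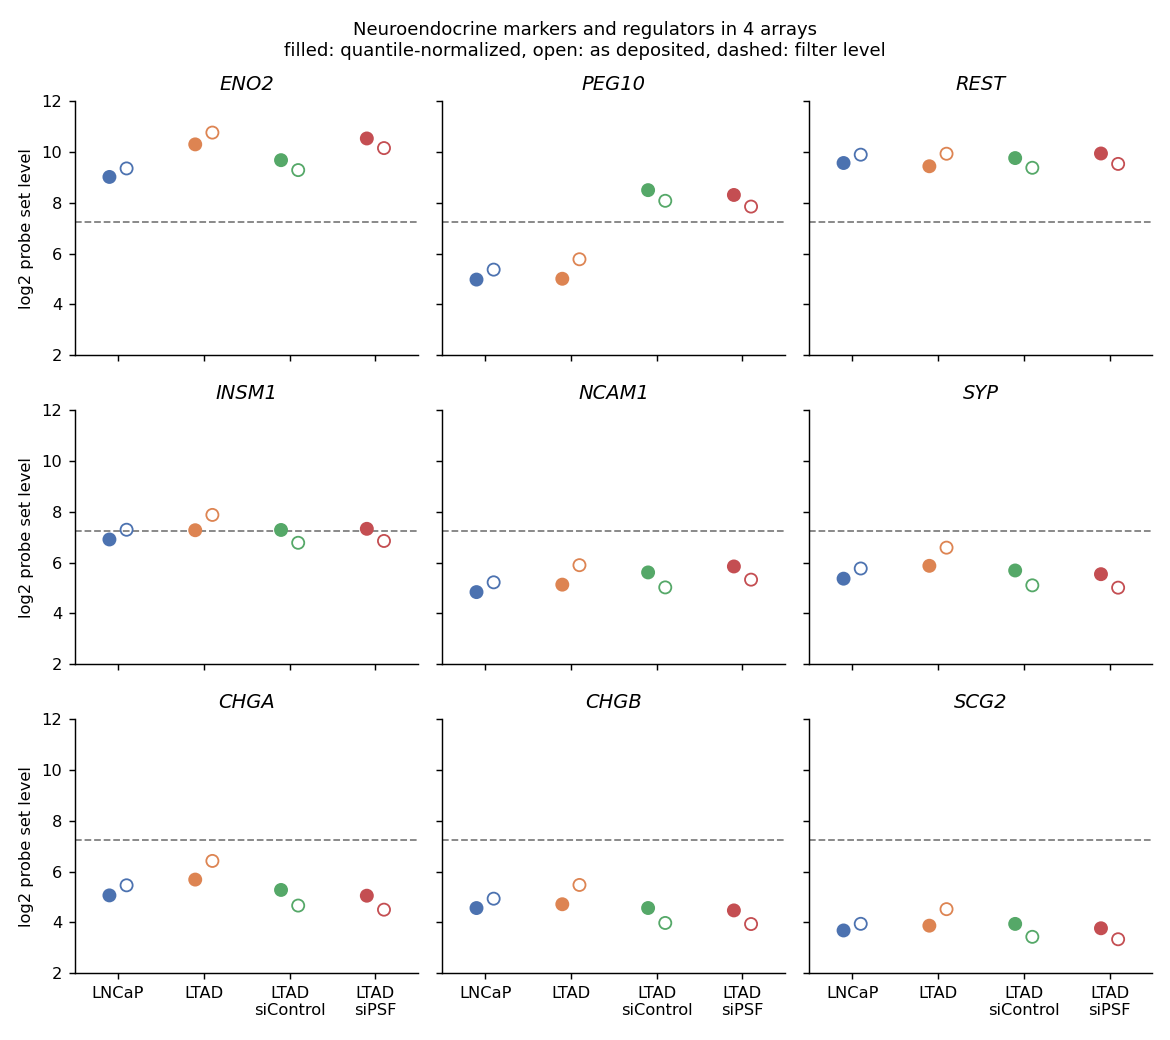
The log2 level of each of the 9 genes (y axis) in the arrays of LNCaP, LTAD, LTAD with siControl and LTAD with siPSF (x axis), 1 each, with filled points after quantile normalization and open points as deposited. The dashed line is the filter level of 7.24; ENO2 and REST lie above it throughout, PEG10 only in the 2 transfected arrays, and CHGA, CHGB, SYP, NCAM1 and SCG2 in none.

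The siPSF array was set against the siControl array to ask what the knockdown changes in castration-resistant cells. ENO2 was 1.80-fold higher in siPSF LTAD than in siControl LTAD, a log2 difference of 0.85, and the other members lay between -0.23 (CHGA) and 0.23 (NCAM1). None of the 4 kept members was 2-fold apart, against 0.724% of kept genes. At 1.5-fold ENO2 alone was counted, beside 0.742% of kept genes higher by that much. Of the 11049 kept genes, 15 had a larger difference than ENO2, and the number was 15 on the deposited values too, where ENO2 differed by 0.86. With untransfected LTAD as the control, ENO2 differed by 0.23 after quantile normalization and by -0.61 as deposited. The deposited column medians were 6.04 for siPSF LTAD and 7.20 for LTAD, and the deposited difference includes that shift. The size of the ENO2 difference with siPSF therefore varied with the array used as control.

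The granins and vesicle genes showed no such difference. In siPSF LTAD minus siControl LTAD, CHGB, the second chromogranin, differed by -0.09, SCG2 by -0.17 and SYP by -0.15. All 3 were under 7.24 in both arrays. INSM1 differed by 0.04 and PEG10 by -0.19. REST, the repressor, read 9.93 in siPSF LTAD and 9.75 in siControl LTAD, a difference of 0.18. Of the 9 members 4 were above 0 and 5 below, and their median was -0.09, beside -0.01 over all 18417 genes.

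**Figure D2:**
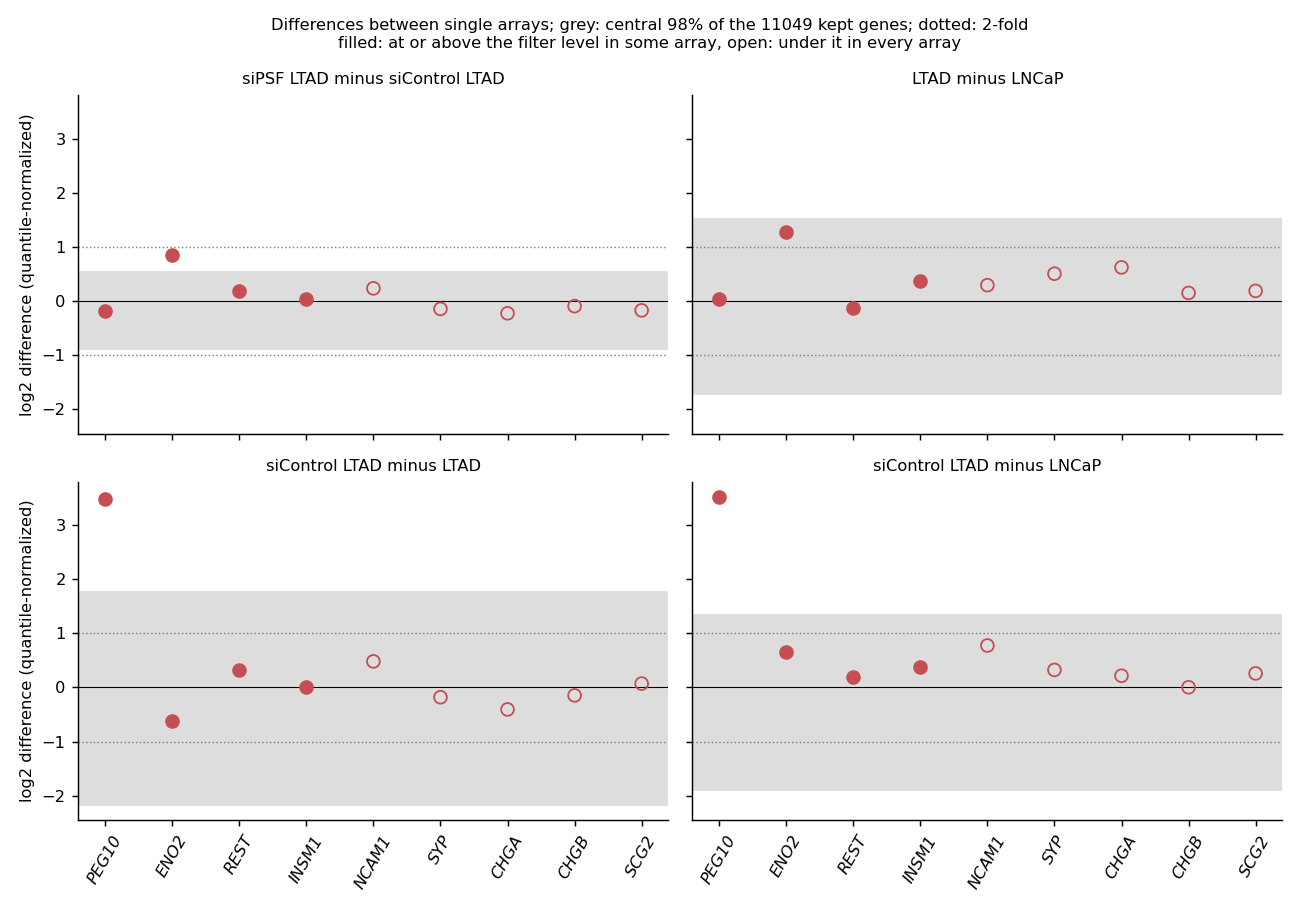
The log2 difference of each member (y axis, quantile-normalized) in 4 comparisons of 2 single arrays, with filled points for the 4 kept genes and open points for those under the filter level in every array. The grey band spans the 1st to 99th percentile of the 11049 kept genes and the dotted lines mark 2-fold; ENO2 at 0.85 stands above the band, which ends at 0.54, with siPSF against siControl, and PEG10 at 3.48 and 3.51 stands above it in both comparisons of siControl LTAD.

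LTAD and LNCaP were compared to see what sets the subline apart from the parental cells. ENO2 was 2.43-fold higher in untransfected LTAD (log2 difference 1.28; 1.41 as deposited), and 147 kept genes had a larger difference. It was the 1 kept member of 4 at 2-fold, where 2.27% of kept genes were that much higher. In siControl LTAD against LNCaP, ENO2 was 1.58-fold higher after quantile normalization (0.86 on the log2 scale with columns shifted to a common median, -0.07 as deposited). PEG10 was there the 1 kept member at 2-fold, where 2.26% of kept genes were that much higher. It passed the filter through the transfected arrays alone and was under 7.24 in LNCaP. In untransfected LTAD minus LNCaP, PEG10 differed by 0.03. These comparisons share the LNCaP array. In siControl LTAD against LNCaP, line, culture medium and transfection cannot be told apart.

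CHGA, the most used serum marker of neuroendocrine tumours, read 5.06 in LNCaP, 5.69 in LTAD, 5.28 in siControl LTAD and 5.05 in siPSF LTAD. SYP read 5.37, 5.87, 5.69 and 5.54 in that order. Both were highest in untransfected LTAD, by 0.62 and 0.50 over LNCaP, and every one of these levels was under 7.24. CHGB stayed between 4.47 and 4.72 and SCG2 between 3.69 and 3.94. The deposited levels of these 4 genes and NCAM1 ran from 3.34 to 6.59 over the 4 arrays. For these 5 markers no array reached the filter level. Whether they were detected is not known, because detection calls are not given in the sources used here.

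INSM1, the zinc-finger factor of the neuroendocrine programme, read 6.91 in LNCaP, 7.27 in LTAD, 7.28 in siControl LTAD and 7.33 in siPSF LTAD. The 3 LTAD arrays differed by at most 0.05 and lay 0.36 to 0.42 above LNCaP. As deposited, INSM1 reached 7.24 in LNCaP at 7.29 and in LTAD at 7.87, and not in the transfected arrays at 6.78 and 6.85. The deposited columns differ in scale. Of all genes, 54.8% reached 7.24 in LNCaP and 58.4% in LTAD, against 43.6% in siControl LTAD and 43.1% in siPSF LTAD.

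Across the markers and regulators, 8 of 9 were above 0 in LTAD minus LNCaP, beside 51.7% of all genes, and REST at -0.13 was the exception. Their median was 0.29, beside 0.01 over all genes. In siControl LTAD minus LNCaP all 9 were above 0, the smallest being CHGB at 0.0018, beside 57.9% of all genes, with a median of 0.32 beside 0.08. On the deposited values, whose column shifts all genes together, the count was 9 for LTAD and 1 for siControl LTAD. Most of these differences were between levels under 7.24.

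REST itself read 9.56 in LNCaP, 9.43 in LTAD, 9.75 in siControl LTAD and 9.93 in siPSF LTAD. Its range over the 4 arrays was 0.50 on the log2 scale (0.55 as deposited), and the 3 LTAD arrays spanned that whole range. The order differed as deposited, where REST was highest in LTAD at 9.92 and lowest in siControl LTAD at 9.37.

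REST works with partners, and 21 of 23 listed co-repressors, turnover and splicing factors were measured and 19 kept, 17 of them at or above 7.24 in all 4 arrays. After quantile normalization none of the 19 was 2-fold apart in any of the 4 comparisons. Of all kept genes, 0.724% were so in siPSF LTAD minus siControl LTAD and 5.69% in LTAD minus LNCaP. The shares were 9.86% in siControl LTAD minus LTAD and 5.23% in siControl LTAD minus LNCaP. In siPSF LTAD minus siControl LTAD the 19 ran from -0.72 for BTRC to 0.41 for EHMT2. There 16 of the 21 measured were above 0, beside 48.1% of all genes. The median over the 21 measured was 0.09, beside -0.01 over all genes. BTRC, the F-box protein that marks REST for degradation, read 7.84 in LNCaP, 7.92 in LTAD, 7.86 in siControl LTAD and 7.14 in siPSF LTAD, where its deposited level of 6.67 was under the filter level. EHMT2 encodes the histone methyltransferase G9a. RCOR1, which encodes CoREST, differed by 0.01, and KDM1A, the histone demethylase of the same complex, by 0.21. SRRM4, the splicing factor that makes a truncated REST in neuroendocrine tumours, was under 7.24 in every array, at 5.19 to 5.83.

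Genes that REST is known to repress in non-neuronal cells were mostly dim. Of 25 listed, 24 were measured, and 17 of these were under 7.24 in all 4 arrays, beside 7368 of all 18417 genes. STMN2, SNAP25, SYN1 and SCN2A were among the 17. In siPSF LTAD minus siControl LTAD 16 of 24 were above 0, beside 48.1% of all genes, with a median of 0.10 beside -0.01. None of the 7 kept genes was 2-fold apart, beside 0.724% of all kept genes. SYT4, a synaptotagmin of secretory vesicles, was the clear exception to the low levels. It read 13.01 in LNCaP, 11.42 in LTAD, 13.17 in siControl LTAD and 12.83 in siPSF LTAD. Untransfected LTAD was the low array, with a log2 difference of -1.59 to LNCaP, and siControl LTAD was above it by 1.75 (3.37-fold), or by 1.12 on the deposited log2 scale. BEX1, a small neuronal adaptor protein, read 7.10 in LTAD against 4.57 in LNCaP, 5.34 in siControl LTAD and 5.77 in siPSF LTAD. It was kept because its deposited level reached the filter level in untransfected LTAD alone, at 7.71.

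PEG10 separated the transfected from the untransfected arrays, 2 pairs that also differed in deposited scale. Deposited medians over all probe sets were 5.98 and 6.04 in the transfected arrays and 6.91 and 7.20 in the untransfected ones. PEG10 read 4.98 in LNCaP and 5.01 in LTAD, and 8.49 in siControl LTAD and 8.30 in siPSF LTAD. The 2 untransfected arrays, of both lines, were low and the 2 transfected LTAD arrays high. How many kept genes split the arrays this way was not counted. The log2 difference of PEG10 was 3.48 for siControl LTAD minus LTAD and 3.51 for siControl LTAD minus LNCaP, or 2.30 and 2.70 on the deposited values. PEG10 was the 1 kept member at 2-fold in siControl LTAD minus LTAD, where 5.54% of kept genes were that much higher. It passed the filter through the transfected arrays alone, the low levels were under 7.24, and so no fold is given. On the deposited values ENO2 and INSM1 were also at least 2-fold lower in siControl LTAD than in LTAD, at -1.47 and -1.09, beside 43.4% of kept genes lower by that much and a median shift of -0.92.

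The neighbours of PEG10 on chromosome 7 were read beside it. SGCE, epsilon-sarcoglycan, which lies next to PEG10 and is imprinted with it, read 4.45 in LNCaP, 4.26 in LTAD, 6.19 in siControl LTAD and 6.25 in siPSF LTAD. The 2 transfected arrays were again the higher ones, with a log2 difference of 1.93 between siControl LTAD and LTAD (0.63 as deposited), but every SGCE level was under 7.24. PPP1R9A, the next protein-coding gene on the other side, read 6.77 in LTAD and 6.13 in siControl LTAD. CASD1, which lies beyond SGCE, differed by -0.22. Among related retrotransposon-derived genes, RTL8A differed by 0.30, RTL8C by -0.75 and RTL1, under 7.24 in every array, by -0.12. RTL8A and RTL8C are near-identical copies, so their separate levels are uncertain.

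**Figure D3:**
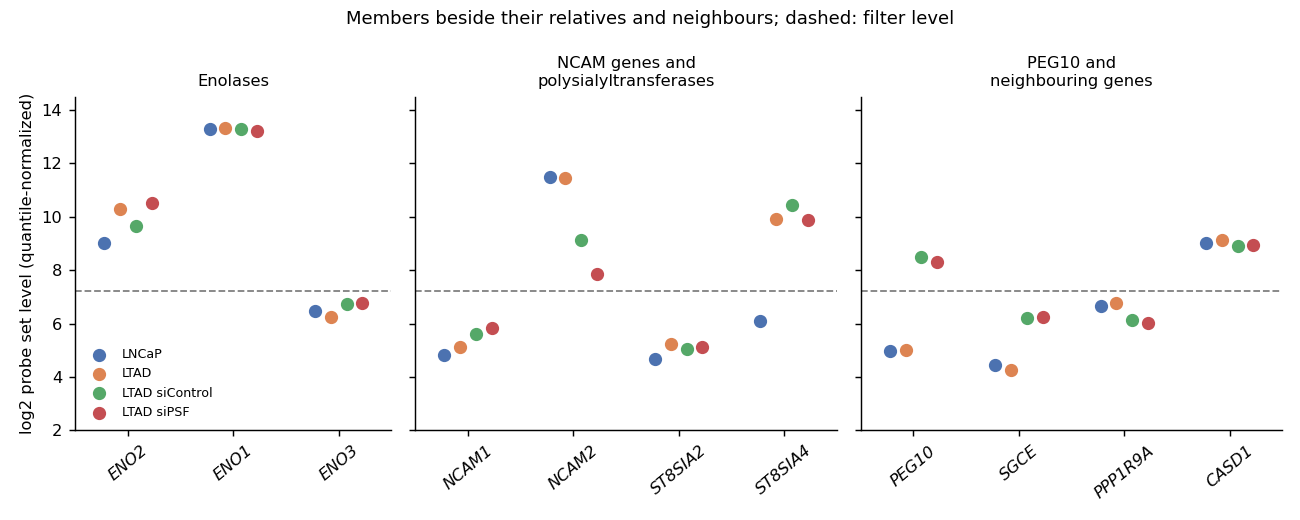
Quantile-normalized log2 levels (y axis) of ENO2, NCAM1 and PEG10 beside related or neighbouring genes (x axis), 1 point for each of the 4 arrays, with the filter level of 7.24 dashed. ENO1 lies between 13.22 and 13.34 while ENO2 spans 1.51, NCAM2 is lowest in siPSF LTAD at 7.87, ST8SIA4 is low in LNCaP alone at 6.11, and PEG10 and SGCE are higher in both transfected arrays.

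The 2 genes whose pattern over the 4 arrays was nearest to PEG10 were BMP7, a bone morphogenetic protein, and PASD1, a cancer-testis antigen gene, at root mean square distances of 0.12 and 0.17 between centred log2 levels. BMP7 read 4.87 in LNCaP, 4.80 in LTAD, 8.15 in siControl LTAD and 7.88 in siPSF LTAD. For ENO2 the nearest were CHST15, a sulfotransferase of chondroitin sulfate, at 0.13, and PTPN13, a protein tyrosine phosphatase, at 0.19. CHST15 read 7.18 in LNCaP, 8.51 in LTAD, 7.98 in siControl LTAD and 8.48 in siPSF LTAD. With 4 arrays such likeness is a description of these arrays only.

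The other enolases did not share the ENO2 pattern. ENO1, the ubiquitous enolase, read 13.28 in LNCaP, 13.34 in LTAD, 13.30 in siControl LTAD and 13.22 in siPSF LTAD, and ENO3, the muscle form, stayed under 7.24 at 6.26 to 6.76. In siPSF LTAD minus siControl LTAD they differed by -0.08 and 0.02, against 0.85 for ENO2.

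NCAM1 encodes the neural cell adhesion molecule CD56, which natural killer cells carry too. It read 4.84 in LNCaP, 5.13 in LTAD, 5.61 in siControl LTAD and 5.85 in siPSF LTAD, all under 7.24, and after quantile normalization the transfected arrays were the higher ones. As deposited the order differed, with LTAD highest at 5.90. Its relative NCAM2 was well read and ran the other way, at 11.47 in LNCaP, 11.46 in LTAD, 9.13 in siControl LTAD and 7.87 in siPSF LTAD. NCAM2 was lower in siControl LTAD than in LTAD by a log2 difference of -2.32, where 4.32% of kept genes were at least 2-fold lower. It was a further 2.41-fold lower with siPSF than with siControl, and at or above the filter level in all 4 arrays. ST8SIA4, one of the polysialyltransferases that put polysialic acid on NCAM, read 6.11 in LNCaP, 9.90 in LTAD, 10.44 in siControl LTAD and 9.88 in siPSF LTAD. All 3 LTAD arrays were high and LNCaP low, under 7.24. ST8SIA2, the other enzyme of this kind, was under 7.24 in every array at 4.67 to 5.23. INSM2, the relative of INSM1, was so too at 5.92 to 6.70. Among relatives of synaptophysin, SYPL2 was under 7.24 throughout at 5.47 to 6.04, while SYPL1, SYNGR1 and SYNGR2 were above it in all 4 arrays and differed by 0.04, 0.08 and 0.02 between siPSF and siControl LTAD.

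Genes that fill and process secretory granules were measured for 10 of 12 listed and kept for 4, beside 11049 of all 18417 genes kept. CPE, carboxypeptidase E of prohormone processing, read 8.93 in LNCaP, 9.60 in LTAD, 9.16 in siControl LTAD and 8.02 in siPSF LTAD. It was 2.21-fold lower with siPSF than with siControl and the 1 gene of the 4 at 2-fold, where 0.661% of kept genes were that much lower. The siPSF array was the low one of all 4, also as deposited. PAM, which amidates neuropeptides, read 6.60, 7.10, 8.71 and 7.72 in the same order. PAM was 1.99-fold lower with siPSF, and the deposited difference of -1.05 lay past 2-fold. Its difference between siControl LTAD and LTAD was 1.61 after quantile normalization, against an LTAD level of 7.10, and 0.58 as deposited, under 2-fold. PCSK1N, a granin-like inhibitor of prohormone convertase, differed by 0.33 with siPSF and VGF by 0.14. The median over the 10 measured was -0.08 with siPSF, beside -0.01 over all genes.

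The machinery of vesicle release was measured for 15 of 16 listed genes. Of these 10 were under 7.24 in all 4 arrays, beside 7368 of all 18417 genes. None of the 5 kept genes was 2-fold apart in siPSF LTAD minus siControl LTAD, beside 0.724% of all kept genes. The differences of the 5 ran from -0.34 for SYT4 to 0.22 for CPLX1. RAB3A, the GTPase of regulated exocytosis, was read at 10.28, 10.26, 10.96 and 10.90 in LNCaP, LTAD, siControl LTAD and siPSF LTAD. The median over the 15 was 0.06, beside -0.01 over all genes.

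Regulators of neuroendocrine fate were measured for 17 of 20 listed genes, and 12 were under 7.24 in every array, beside 7368 of all 18417 genes. SOX2, MYCN, POU3F2, NKX2-1 and DLL3 were among the 12. The 5 kept were AURKA, EZH2, ONECUT2, FOXA2 and HES6, and none was 2-fold apart with siPSF, beside 0.724% of all kept genes. AURKA, the mitotic kinase that stabilises N-Myc, read 8.73 in LNCaP, 7.67 in LTAD, 9.38 in siControl LTAD and 9.32 in siPSF LTAD. It was 2.10-fold lower in LTAD than in LNCaP, where 3.42% of kept genes were that much lower (-0.84 as deposited, under 2-fold), and 3.29-fold higher in siControl LTAD than in LTAD (0.75 as deposited). EZH2, the Polycomb methyltransferase, read 9.94, 8.94, 9.58 and 9.36 in that order. On this scale untransfected LTAD was the low array for both. As deposited, AURKA was again lowest there, while EZH2 read 9.45 in LTAD and lower in siControl LTAD at 9.19 and siPSF LTAD at 8.93. The medians over the 17 were -0.07 with siPSF and -0.08 in LTAD minus LNCaP, beside -0.01 and 0.01 over all genes.

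Neuropeptides, enzymes of amine synthesis and their receptors were mostly dim, with 15 of 17 measured genes under 7.24 in all 4 arrays, beside 7368 of all 18417 genes. GRP, CALCA, SST and UCHL1 were among the 15. The 2 kept genes were GAL, the neuropeptide galanin, and DDC, the decarboxylase of dopamine and serotonin synthesis. GAL read 9.54 in LNCaP, 8.63 in LTAD, 9.42 in siControl LTAD and 9.33 in siPSF LTAD. DDC read 8.81 in LNCaP, 8.52 in LTAD, 6.82 in siControl LTAD and 6.39 in siPSF LTAD, with both transfected arrays under the filter level as deposited. The median of the group with siPSF was -0.09, beside -0.01 over all genes.

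**Figure D4:**
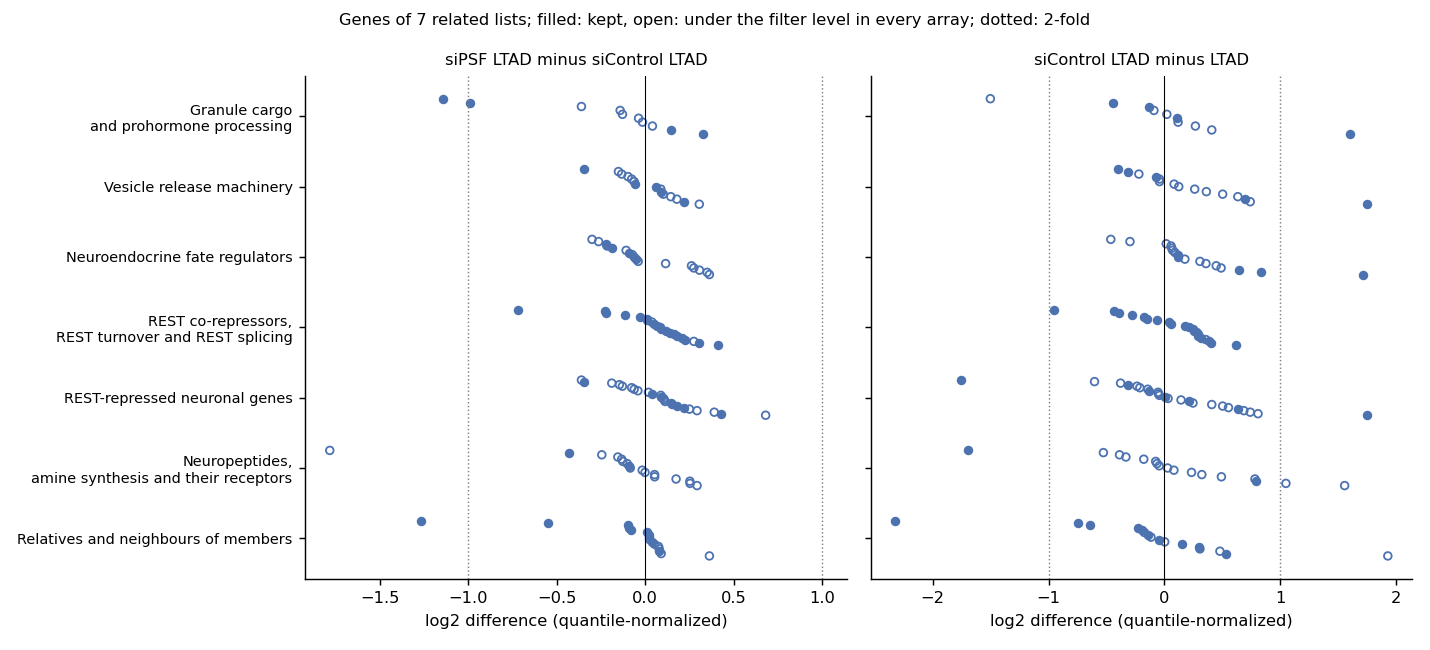
The log2 difference (x axis, quantile-normalized) of each measured gene of 7 related lists (rows) for siPSF LTAD minus siControl LTAD on the left and siControl LTAD minus LTAD on the right, with filled points for kept genes and open points for genes under the filter level in every array. Dotted lines mark 2-fold; CPE at -1.14 and NCAM2 at -1.27 are the kept genes past it on the left, and SYT4, AURKA and PAM lie past 1 and BEX1, DDC and NCAM2 past -1 on the right.

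The labelled cell type was checked against marker genes. Of 6 luminal prostate markers measured of 10 listed, KLK2, HOXB13, KRT8, KRT18 and ACP3 were at or above 7.24 in all 4 arrays. KLK3, which encodes prostate-specific antigen, read 12.89 in LNCaP, 11.06 in LTAD, 7.47 in siControl LTAD and 7.11 in siPSF LTAD, and was under the filter level as deposited in both transfected arrays. Of all 18417 genes 7368 were under that level in every array. Of 7 markers of natural killer and T cells 6 were under it in every array, PTPRC at 3.40 to 3.62 among them, and NKG7 reached it in 1. Of 8 fibroblast and smooth muscle markers 5 were under it throughout, with COL1A1 above it in all 4 arrays, and of 5 measured basal markers 2 were. Of 6 measured markers of neurons and glia 5 were under it throughout, MAP2 being the exception. Median levels ran from 4.81 to 5.06 for the natural killer and T cell markers, from 6.02 to 6.54 for the fibroblast and smooth muscle markers and from 6.80 to 6.95 for the basal markers. Whether KLK3 and the other genes that set transfected apart from untransfected arrays bear on the PEG10 difference was not tested.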

How the data were processed

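Per the submitters' processing notes, the authors used RMA and Affymetrix Expression Console, and the deposited values are on a log2 scale. Versions, settings, batches and detection calls are not given in the sources used here. Names of probe sets came from GEO's annotation of the platform, with symbols updated through Entrez IDs to RefSeq (GRCh38.p14; 19429 IDs matched). Of 33297 probe sets 19460 had 1 symbol, 1754 several and 12083 none. For the 769 genes with several, the probe set with the highest mean was used. All 33297 probe sets were quantile-normalized over the 4 arrays (Python 3.11.15, NumPy 2.4.6, pandas 2.3.3), and log2 differences were counted at 2-fold among the 11049 kept genes. The calculation was tested on simulated data. A median difference is over all measured genes of a list. Array number limits the precision.

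Members and lists were chosen with earlier results of these data known. The members, SFPQ, their relatives and neighbours, up to 2 genes per list, comparison and direction at 2-fold, and the 2 nearest patterns of kept members spanning at least 1 log2 unit were named by rule; other genes are examples chosen after their values were seen. Alternatives were the deposited scale, median-shifted columns, the mean of probe sets, other filters, 1.5-fold and other LTAD arrays. Some items are not reported here.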

Additional observations from a re-analysis of the deposited data

How the results depend on the processing

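The count of kept members at least 2-fold apart was 0 for siPSF LTAD minus siControl LTAD and 1 for each other comparison. At 1.5-fold the count became 1 for siPSF against siControl (ENO2 higher), beside 3.86% of kept genes in either direction. It was 2 for siControl LTAD minus LTAD (ENO2 lower and PEG10 higher), beside 26.6%. For siControl LTAD minus LNCaP it was 2 (ENO2 and PEG10, both higher), beside 17.4%. With untransfected LTAD as the control of siPSF it was 1 (PEG10), and with siPSF LTAD in place of LTAD against LNCaP it was 2 (ENO2 and PEG10). When both arrays had to reach the filter level it was 0 in both siControl LTAD comparisons, since PEG10 was under that level in LTAD and LNCaP. On the deposited values it was 3 for siControl LTAD minus LTAD, where the median of kept genes was -0.92 against 0.04 after quantile normalization. Over all kept genes that comparison had 65 higher and 4791 lower as deposited, against 612 and 477. For siControl LTAD minus LNCaP they were 52 and 2719 as deposited, against 250 and 328, with medians of -0.72 and 0.05. For LTAD minus LNCaP they were 355 and 255 as deposited, against 251 and 378, with medians of 0.20 and 0.02. The median shift, the mean of probe sets, no filter, and a filter set on the quantile-normalized values, the last chosen after seeing the data, left every count as it was. Of the 36 differences of single members, 13 had another sign on the deposited values and 1 with columns shifted to a common median, and none of these was a kept member at 2-fold after quantile normalization. INSM1 in siControl LTAD minus LTAD was among the 13, at 0.01 after quantile normalization and -1.09 as deposited. Low signal limits CHGA, CHGB, SYP, NCAM1 and SCG2 most, since they stayed under the filter level in every array. No paired analysis was possible because each group held 1 array.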

Other observations

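A few genes tied to secretory or neuronal cells stood out among those under the filter level, and were picked after their values were seen. NTS, the neuropeptide neurotensin, read 3.13 in LNCaP, 5.75 in LTAD, 7.31 in siControl LTAD and 5.52 in siPSF LTAD after quantile normalization. All 3 LTAD arrays lay above LNCaP and siControl LTAD was highest, but the deposited levels of 3.31, 6.48, 6.81 and 4.99 were all under 7.24. SCGN, the calcium sensor secretagogin of endocrine cells, read 5.67 in LTAD against 4.26 in LNCaP, 4.17 in siControl LTAD and 4.02 in siPSF LTAD, also under 7.24 throughout.

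MAP2, a microtubule-associated protein of neurons, read 8.99 in LNCaP, 9.26 in LTAD, 5.62 in siControl LTAD and 4.52 in siPSF LTAD. The untransfected arrays of both lines were high and the transfected ones under the filter level, the reverse of PEG10.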
